A study of Mus musculus with 6 samples.

Results

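The genes described are the members of the 14-3-3 family Ywhab, Ywhae, Ywhag, Ywhah, Ywhaq and Ywhaz, which encode the beta, epsilon, gamma, eta, theta (also called tau) and zeta proteins. They were chosen by symbol as known SELENOW partners and not by their measured values, but with earlier results of these data known. They are 6 of the 55416 genes in the deposited count table. All 6 passed the filter on low counts and were among the 15623 genes tested. The 14-3-3 proteins are small adaptors that work as dimers. Each subunit of a dimer holds a groove that clasps a phosphorylated serine or threonine of another protein, and binding can hide, move or hold still the protein so marked. In skeletal muscle their known clients include TBC1D4, which restrains glucose transporter traffic until insulin signaling phosphorylates it, the FOXO factors that drive atrophy genes, and the class IIa histone deacetylases that hold back MEF2. They are also known partners of SELENOW, a small selenoprotein with a thioredoxin-like fold, and of RAC1.

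RNA sequencing was performed on 3 tibialis anterior (TA) muscle samples of wild-type (WT) mice and 3 of SELENOW knockout (KO) mice, all naturally aged to 24 months and, by the study's methods, male. The KO line was made on a C57BL/6N background by removing exon 4 of the gene with CRISPR-Cas9, and the WT mice came from a line on the same background. The labels name no treatment other than natural aging, and the study describes the replicates of a genotype as separate mice. The deposited values are raw counts per gene, with 25351976 to 29111213 counts per library in WT and 27345022 to 27815342 in KO. Levels are given as CPM (counts scaled by TMM to a common library size), always in the order of replicates 1, 2 and 3. The comparison made is that of KO with WT muscle, for the mRNA of adaptors that bind the missing protein.

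The targeted gene Selenow had CPM values of 268, 245 and 219 in the WT libraries and 193, 212 and 210 in the KO libraries. The KO libraries thus all lay under the WT libraries, but the log2 fold change of -0.25 did not pass the test (adjusted p = 0.604 in edgeR), and counts per gene cannot show the loss of 1 exon. The study reports loss of the SELENOW protein in TA muscle of KO mice by Western blot. Fast muscle markers were present as the tissue label says, with a summed CPM of 85125 to 108162 in WT and 92850 to 105014 in KO over 8 of 8 listed genes, Acta1, Ckm and Myh4 among them. The 6 leukocyte markers summed to 49.1 CPM in WT replicate 3 and to 10.4 to 19.9 in the other 5 libraries, and the 4 fibroblast markers to 207 in WT replicate 3 and to 55.9 to 115 in the others. Each of these markers had counts in at least 1 library, and the T cell marker Cd3e met the thresholds described below, with a mean CPM of 1.10 in WT and 2.48 in KO, and is named after its values were seen. Other leukocyte genes had log2 fold changes of the opposite sign (Ptprc -1.21, Adgre1 -1.11, Lyz2 -1.45) or near 0 (Cd68 0.052), with overlapping libraries and a list median of -1.11 over 5 tested genes. Mitochondrially encoded genes took 29.1% to 37.3% of the counts in WT and 35.4% to 40.3% in KO.

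How far reads can tell these genes apart depends on their sequences, so the most alike stretch of their coding sequences is shown first. It is the gap-free window of 60 bases, in an alignment by codon, with the highest mean identity between members. It codes for part of the N-terminal region, which takes part in the pairing of 14-3-3 proteins, and capitals mark each base that differs from the commonest base at its place, or, where bases tie as commonest, from the tied base that comes first in the alphabet. Sequences are coding strand, from GENCODE M21 transcripts of GRCm38.
Ywhaz (zeta): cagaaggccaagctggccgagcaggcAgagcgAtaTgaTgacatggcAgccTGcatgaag
Ywhaq (theta): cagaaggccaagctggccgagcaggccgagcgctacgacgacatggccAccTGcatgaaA
Ywhab (beta): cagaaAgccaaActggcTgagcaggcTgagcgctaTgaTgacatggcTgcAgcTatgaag
Ywhag (gamma): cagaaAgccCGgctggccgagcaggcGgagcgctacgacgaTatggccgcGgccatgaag
Ywhah (eta): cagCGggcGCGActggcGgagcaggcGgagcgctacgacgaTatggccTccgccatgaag
Ywhae (epsilon): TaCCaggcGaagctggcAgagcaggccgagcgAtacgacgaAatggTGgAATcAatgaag

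Even here only 36 of the 60 positions held the same base in all 6 genes. By this rule Ywhae had capitals at 13 positions, the most of the 6, and its encoded residues differed from those of Ywhaz at 6 places. Ywhab and Ywhaq each differed from Ywhaz by 1 residue, Ywhag by 2 and Ywhah by 4. The window lies in a coding exon of Ywhaz at chr15:36790897-36790956 (minus strand), of Ywhaq at chr12:21417011-21417070 (minus), of Ywhab at chr2:164011632-164011691 (plus), of Ywhag at chr5:135934326-135934385 (minus) and of Ywhah at chr5:33019092-33019151 (plus). In Ywhae it spans the first intron, from chr11:75733052 to 75751900 (plus).

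Over the whole coding sequence, the 15 pairs of members were 61.8% to 79.0% identical in bases and 64.1% to 87.0% in encoded residues. Ywhag and Ywhah were the closest pair and Ywhae and Ywhah the most distant. The longest stretch shared without a mismatch by 2 members' longest coding transcripts was 30 bases, between Ywhag and Ywhah. A stretch of that length is shorter than a sequencing read. The encoded proteins have 245 residues for Ywhaq and Ywhaz, 246 for Ywhab and Ywhah, 247 for Ywhag and 255 for Ywhae. In GRCm38 the genes lie at chr2:163994960-164018588 (Ywhab, plus strand), chr11:75732869-75765845 (Ywhae, plus), chr5:135908409-135934616 (Ywhag, minus), chr5:33018816-33027966 (Ywhah, plus), chr12:21390071-21417637 (Ywhaq, minus) and chr15:36770770-36796929 (Ywhaz, minus).

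The 6 genes differed widely in level, and Ywhae was the main one. Per kilobase of counted exon, Ywhae had CPM values of 75.5 ± 4.62 in WT and 78.6 ± 4.60 in KO (n = 3 each, SD). Ywhag came next with 27.8 ± 2.58 in WT and 24.6 ± 2.50 in KO per kilobase (n = 3 each, SD). These 2 genes made up 62.0% and 21.1% of the summed level of the family on this scale. Ywhab was at 7.20 ± 1.28 in WT and 7.39 ± 0.391 in KO, Ywhaz at 7.20 ± 0.648 and 6.18 ± 0.0823, Ywhah at 5.07 ± 0.310 and 4.42 ± 0.326, and Ywhaq at 2.16 ± 0.381 and 2.41 ± 0.139 (CPM per kilobase, n = 3 each, SD). Ywhae lay 2.94-fold above Ywhag, and Ywhag 3.59-fold above Ywhab, with no overlap between the libraries of neighbours. Ywhab was above Ywhaz in 4 of 6 libraries. In WT the ranges of these genes overlapped. In KO all Ywhab values (7.52, 6.96 and 7.71) lay above all Ywhaz values (6.27, 6.15 and 6.11). Among all tested genes, Ywhae stood at the 98.0th percentile of level per kilobase and Ywhaq at the 60.4th.

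**Figure D1:**
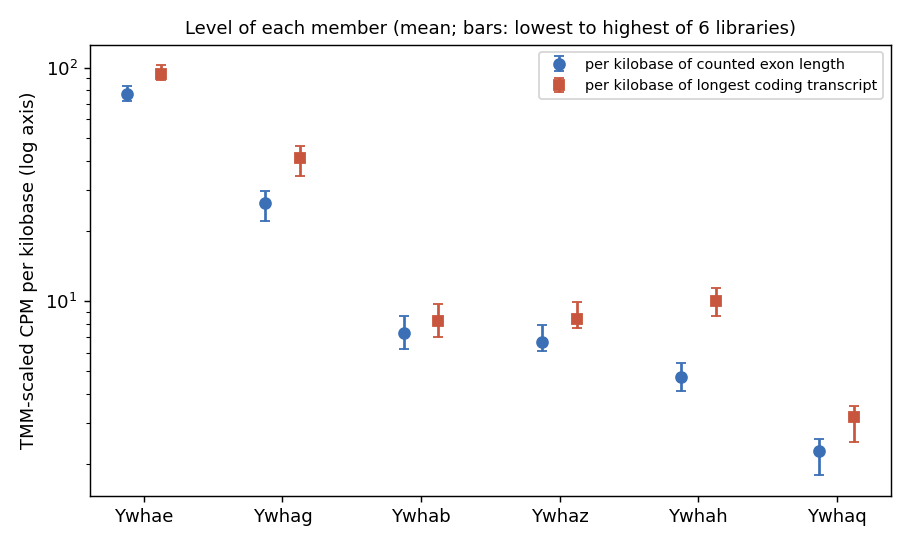
The vertical axis gives the TMM-scaled CPM per kilobase on a log axis for each member on the horizontal axis, with the mean as a point and the lowest to highest of 6 libraries as a bar, for 2 choices of gene length. Ywhae and Ywhag are highest with either length, and Ywhah moves from the fifth place to the third when the transcript length is used.

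The order of the 3 genes in the middle depended on the length used. The counted length of Ywhah is 3709 bases, whereas its longest coding transcript has 1764. Divided by the length of that transcript, a choice made after seeing the data, Ywhah had a level of 9.97 per kilobase, Ywhaz 8.38 and Ywhab 8.19, and the ranges of neighbours overlapped. On this scale Ywhah was above Ywhaz in 6 of 6 libraries, and Ywhaz above Ywhab in 2 of 6. Ywhae, Ywhag and Ywhaq kept the first, second and last places with both lengths, at 94.2, 41.0 and 3.19 per kilobase of transcript.

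No member passed the test for a difference between genotypes. At the thresholds the study used for differentially expressed genes (DEGs), a fold change over 1.5 or under 0.7 together with an unadjusted p under 0.05, 0 of the 6 genes were called, where 5.35% of all tested genes were (2.21% higher and 3.14% lower in KO). An unadjusted p under 0.05 alone was also given to 0 of the 6, against 9.89% of all tested genes in edgeR. With adjustment over all genes, 0 of the 6 and 0% of all tested genes were under 0.05 in edgeR. DESeq2 likewise gave 0 of the 6 past the DEG thresholds and 0 with an adjusted p under 0.05, against 771 and 45 of the 15623 genes. Ywhag, Ywhah and Ywhaz had lower means in KO and Ywhab, Ywhae and Ywhaq higher ones. The median log2 fold change was -0.068 over the members and -0.0042 over all tested genes, and the median size without sign was 0.17 and 0.19. The median over the members was -0.011 when KO replicate 2 was left out.

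**Figure D2:**
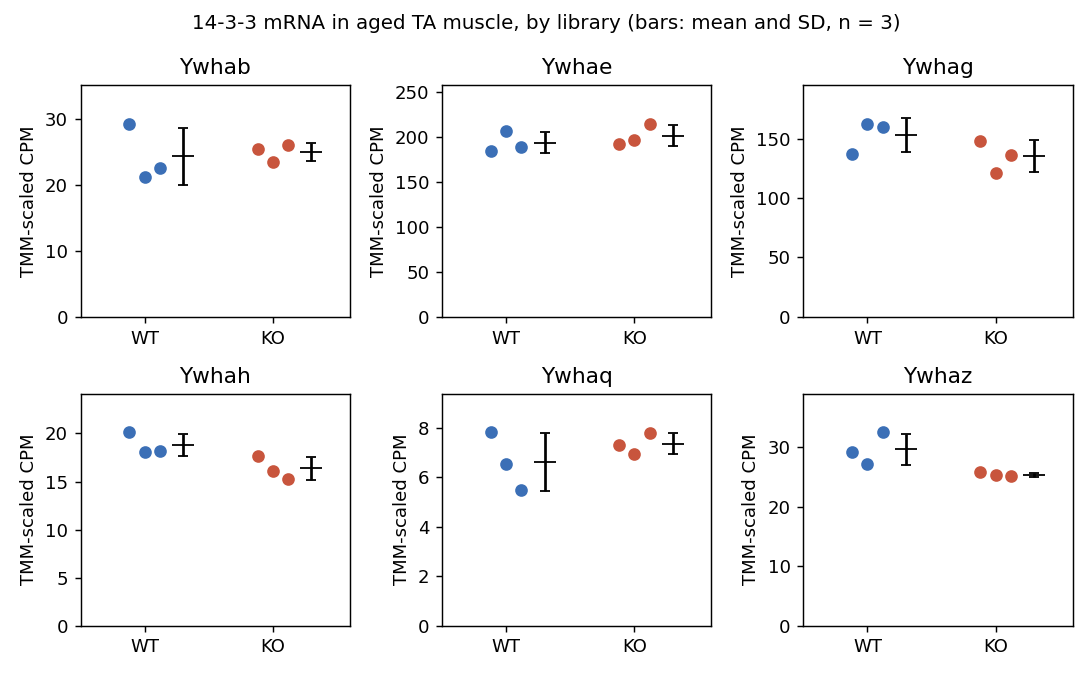
Each panel plots the TMM-scaled CPM of 1 member (vertical axis, from 0) in the 3 WT and 3 KO libraries, with the mean and SD as a bar beside the points. The points of the genotypes overlap for Ywhab, Ywhae, Ywhag and Ywhaq, while for Ywhah and Ywhaz the KO points lie just under the WT points.

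Ywhaz encodes the zeta protein, and its transcript is often used as a reference in qPCR. It had CPM values of 29.2, 27.3 and 32.5 in the WT libraries and 25.8, 25.3 and 25.2 in the KO libraries. Each KO library lay under each WT library, and the KO libraries lay closer together (SD 0.339) than the WT libraries (SD 2.67). The log2 fold change of -0.22 (standard error, SE, 0.12) had an adjusted p of 0.587 in edgeR, the lowest of the 6 members. Its 95% interval ran from 0.714-fold to 1.03-fold. WT replicate 3, the library with the highest leukocyte and fibroblast sums, was also the highest for Ywhaz, and without it the log2 fold change was -0.15. The part of those cells in the Ywhaz level was not tested, and in bulk tissue fewer cells of a type cannot be told apart from less RNA per cell.

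Ywhah encodes the eta protein, closest to gamma among the 6. Its CPM was 20.1, 18.1 and 18.2 in the WT libraries and 17.7, 16.1 and 15.3 in the KO libraries. The groups again did not overlap, by a margin of less than 1 CPM. The log2 fold change was -0.20 (SE 0.12), with an adjusted p of 0.637 in edgeR and a 95% interval of 0.723-fold to 1.05-fold. Thus for 2 of the 6 members each KO library lay under each WT library, and for 0 of the 6 above, where 7.87% and 7.53% of all tested genes showed these patterns. For each of these 2 genes alone the exact permutation test (two-sided) gave p = 0.1, the smallest that 3 against 3 libraries allow. Groups that do not overlap always give this value, so it adds nothing to the lack of overlap.

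Ywhag encodes the gamma protein, long known as abundant in skeletal muscle, heart and brain. It had CPM values of 137, 163 and 160 in the WT libraries and 148, 121 and 137 in the KO libraries. KO replicate 2 was the lowest library, and the genotypes overlapped because KO replicate 1 was above WT replicate 1. The mean was 153 ± 14.2 in WT and 135 ± 13.8 in KO (n = 3 each, SD), for a log2 fold change of -0.18 (SE 0.14) with an adjusted p of 0.718 in edgeR. The 95% interval ran from 0.712-fold to 1.10-fold.

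Ywhae encodes the epsilon protein, which prefers to pair with other family members rather than with itself. Its CPM was 185, 207 and 189 in the WT libraries and 193, 197 and 215 in the KO libraries. The genotypes overlapped widely. With 32353 counts over the 6 libraries, it was the most deeply counted member, and the coefficient of variation was 6.12% in WT and 5.85% in KO. The log2 fold change was 0.059 (SE 0.14), with an adjusted p of 0.916 in edgeR and a 95% interval of 0.847-fold to 1.28-fold.

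Ywhab encodes the beta protein. It stood at CPM values of 29.3, 21.2 and 22.6 in the WT libraries and 25.4, 23.5 and 26.1 in the KO libraries. All KO libraries lay inside the WT range. Its log2 fold change of 0.041 (SE 0.14, 95% interval 0.830-fold to 1.28-fold) was the closest to 0 of the 6, with an adjusted p of 0.949 in edgeR, and it turned negative when WT replicate 2 (-0.048) or WT replicate 3 (-0.012) was left out.

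Ywhaq encodes the theta protein, first described in T cells. It had CPM values of 7.83, 6.54 and 5.50 in the WT libraries and 7.33, 6.97 and 7.82 in the KO libraries. WT replicate 1 was the highest of all libraries and WT replicates 2 and 3 the lowest, and the groups overlapped. The log2 fold change was 0.16 (SE 0.16), with an adjusted p of 0.774 in edgeR and an interval of 0.873-fold to 1.43-fold. It was 0.29 without WT replicate 1 and 0.040 without WT replicate 3. With 1132 counts over the 6 libraries it was the least deeply counted member and had the widest interval.

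**Figure D3:**
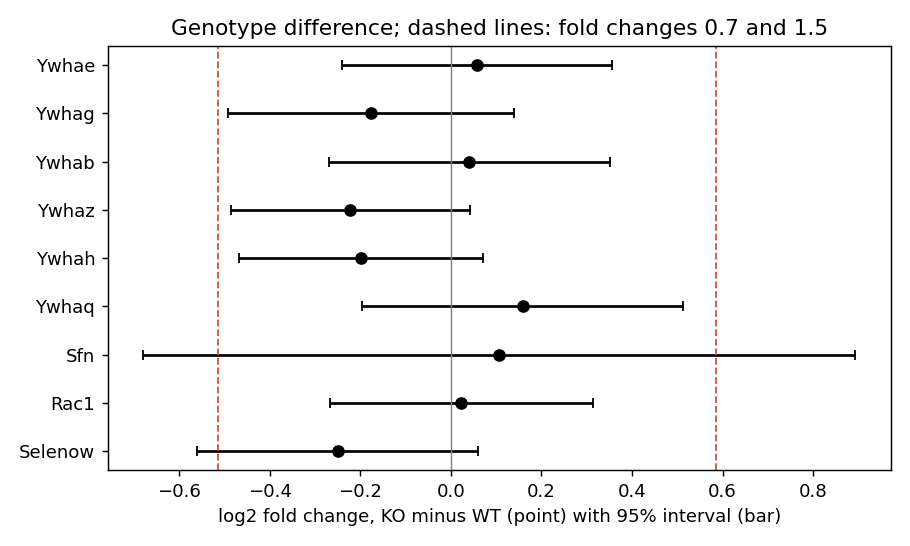
Points give the log2 fold change of KO minus WT (horizontal axis) and bars the 95% interval for the 6 members, Sfn, Rac1 and Selenow (vertical axis), with dashed lines at fold changes of 0.7 and 1.5. All 6 member intervals include 0 and lie between the dashed lines, and the interval of Sfn crosses both.

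All 6 intervals lay within a fold change of 0.7 to 1.5, as did 36.4% of the intervals of all tested genes and 67.4% of those of the 6699 genes with a mean CPM at or above that of Ywhaq. They are intervals for the difference between genotypes, given the spread between these libraries under edgeR's model. A p that misses the threshold does not show that the genotypes had equal levels. The members varied less between libraries of 1 genotype than the general run of genes, with a median within-group SD of 0.12 on the log2 scale against 0.24 over all tested genes, most of which have lower counts.

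Ywhae and Ywhag kept much the same share of the family in each library, and the small shares of Ywhab and Ywhaq varied more for their size. Ywhae took 59.4% to 62.0% of the summed level per kilobase in WT and 61.0% to 64.9% in KO, and Ywhag 20.6% to 23.4% in WT and 18.5% to 21.9% in KO. Both ranges overlapped between the genotypes. Ywhaz took 5.09% to 6.38% in WT and 4.73% to 5.18% in KO, so that its share overlapped although its CPM did not. Ywhah took 3.74% to 4.49% in WT and 3.19% to 3.87% in KO, Ywhab 4.81% to 7.17% and 5.86% to 6.11%, and Ywhaq 1.45% to 2.12% and 1.92% to 1.98%. The summed level of the 6 genes was 125 ± 4.85 in WT and 124 ± 5.30 in KO (CPM per kilobase, n = 3 each, SD).

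Sfn, which encodes the sigma protein of epithelial cells and is not among the 6, was near the limit of these libraries. It had 23, 23 and 18 counts in the WT libraries and 20, 18 and 23 in the KO libraries. Its log2 fold change of 0.11 (SE 0.36, adjusted p = 0.946 in edgeR) had an interval of 0.625-fold to 1.86-fold, too wide to place it against the thresholds. Of the 5 epidermal markers, 3 had no count in any library and the list summed to 7.99 to 10.3 CPM.

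Retrotransposed copies can share reads with the genes they came from, and 11 annotated pseudogenes aligned to a member's coding sequence with at least 80% identity over at least 50% of it. Ywhaq had 8 of them, Ywhah 2 and Ywhaz 1, while Ywhab, Ywhae and Ywhag had 0. Of the 11, 8 held counts. The copies of Ywhaq together held 439 counts over the 6 libraries, which equals 38.8% of the counts of Ywhaq itself, and most of these were in Gm2423 (217 counts) and Ywhaq-ps3 (194 counts). In the window shown above, Gm2423 and Ywhaq-ps3 do not differ from Ywhaq at any base, and the longest stretches they share with it without a mismatch are 410 and 404 bases. The count of Ywhaq is thus uncertain in level. Gm4202, the copy of Ywhaz, shares a run of 589 bases with it and held 211 counts, or 4.67% of those of Ywhaz. Ywhaq-ps1 and Ywhaq-ps2 held 0 and 1 count in all.

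Of the 4 copies that passed the filter on low counts, 1 met the DEG thresholds, which 5.35% of all tested genes did. Ywhaq-ps3 had a mean level of 1.10 ± 0.205 in WT and 1.30 ± 0.0288 in KO, and Gm2423 of 1.34 ± 0.269 and 1.34 ± 0.170 (CPM, n = 3 each, SD). Neither passed the test, with log2 fold changes of 0.24 for Ywhaq-ps3 and 0.0051 for Gm2423. Gm4202 held 33, 29 and 55 counts in the WT libraries and 45, 28 and 21 in the KO libraries, with overlapping groups. Gm12428 is a copy of Ywhah, 95.3% identical to it, and shares a run of 193 bases with it without a mismatch. How reads of that run were split between Gm12428 and Ywhah was not tested. Gm12428 held 34, 44 and 50 counts in WT and 24, 17 and 24 in KO, so that each KO library lay under each WT library. Its log2 fold change of -0.78 (SE 0.30) met the DEG thresholds but had an adjusted p of 0.443 in edgeR, and it is named here after its values were seen. The call was lost with DESeq2 (log2 fold change -0.78), without KO replicate 2 (-0.65) and without WT replicate 3 (-0.69), and a difference between Gm12428 and Ywhah in their response was not tested. When the counts of all aligned pseudogenes were added to their closest member, a step added after seeing the data, the log2 fold changes became -0.23 for Ywhah, 0.14 for Ywhaq and -0.22 for Ywhaz, and none was called.

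**Figure D4:**
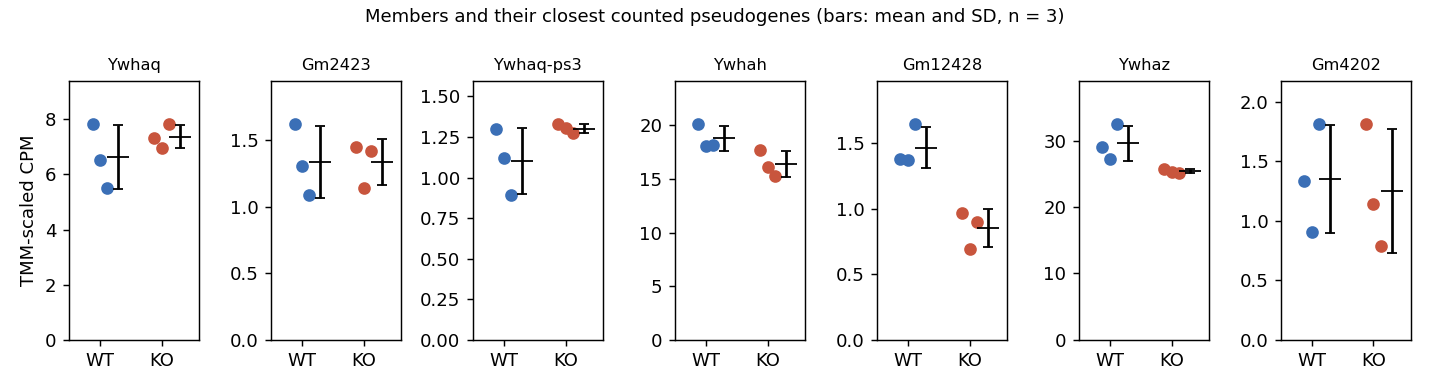
Each panel gives the TMM-scaled CPM (vertical axis, from 0, with its own scale) in WT and KO libraries for Ywhaq, Ywhah and Ywhaz and the counted pseudogenes closest to them, with the mean and SD as a bar beside the points. Gm2423, Ywhaq-ps3, Gm12428 and Gm4202 stay below 2 CPM, and the KO points of Gm12428 lie below its WT points.

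A gene on the opposite strand, Gm4419, overlaps 248 exon bases of Ywhaq and held 10 to 25 counts per library. No other gene of the table overlapped an exon of a member, and the strand setting of the counting is not given in the sources used here.

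The partners of 14-3-3 proteins were described from lists chosen by function, with earlier results of these data known. RAC1, which binds both SELENOW and 14-3-3 proteins, had CPM values for its gene Rac1 of 88.7, 106 and 94.5 in the WT libraries and 94.1, 98.5 and 102 in the KO libraries. All KO values lay inside the WT range, with a log2 fold change of 0.024 (SE 0.13, adjusted p = 0.966 in edgeR).

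Of 40 genes for proteins that 14-3-3 dimers bind when phosphorylated, 39 were tested. Of these, 0 met the DEG thresholds in edgeR, which 5.35% of all tested genes did. An unadjusted p under 0.05 in edgeR was given to 4 of the 39, a share close to the 9.89% of all tested genes, and these 4 are named after their values were seen. Mdm4, an inhibitor of p53, had CPM values of 20.4, 18.2 and 19.9 in the WT libraries and 30.6, 29.8 and 23.5 in the KO libraries, with each KO library above each WT library. Its log2 fold change was 0.52 (SE 0.14, adjusted p = 0.299 in edgeR), under the fold change threshold. Ksr1, a kinase scaffold, had CPM values of 79.5 ± 6.91 in WT and 102 ± 4.37 in KO (n = 3 each, SD), and its groups did not overlap either. Hdac7, a class IIa histone deacetylase, and Irs1, the insulin receptor substrate, had log2 fold changes of 0.44 and -0.37 with overlapping libraries. The adjusted p in edgeR was 0.416 for Ksr1, 0.488 for Hdac7 and 0.455 for Irs1. The median log2 fold change of the 39 client genes was 0.094, against -0.0042 over all tested genes. DESeq2 also gave 0 client genes past the DEG thresholds and 3 with an unadjusted p under 0.05, against 771 and 1290 of all 15623 genes. In edgeR 0 of the 39, and 0% of all tested genes, had an adjusted p under 0.05.

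Of 30 kinases that phosphorylate 14-3-3 binding motifs or the 14-3-3 proteins themselves, such as the AKT, AMPK and CaMKII families, 29 were tested. Of these, 0 met the DEG thresholds and 0 had an unadjusted p under 0.05, in edgeR and in DESeq2 alike, where edgeR gave 5.35% and 9.89% of all tested genes and DESeq2 called 771 and 1290 of the 15623. With 1 library left out, 0 to 2 of the client genes and 0 to 2 of the kinases met the DEG thresholds, and 814 to 1072 of all genes then tested. The median log2 fold change of the kinases was 0.055.

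For each member, the gene with the most similar course over the 6 libraries was looked up among 5341 genes outside the family with a mean CPM of at least 10. The Pearson correlations of log2 CPM, over 6 libraries that differ in genotype and composition, were 0.989 between Ywhab and Sdhc, 0.989 between Ywhae and Dpm1, 0.986 between Ywhag and Arfgef2, 0.981 between Ywhah and Dbndd2, 0.982 between Ywhaq and Smim14 and 0.974 between Ywhaz and Gpx1. Between 5 and 27 genes exceeded 0.95 for each member, so the top gene is 1 of several. Each is the highest of 5341 correlations over only 6 libraries. How many genes would exceed 0.95 by chance was not tested, so these genes are not shown to be related to the members.

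**Figure D5:**
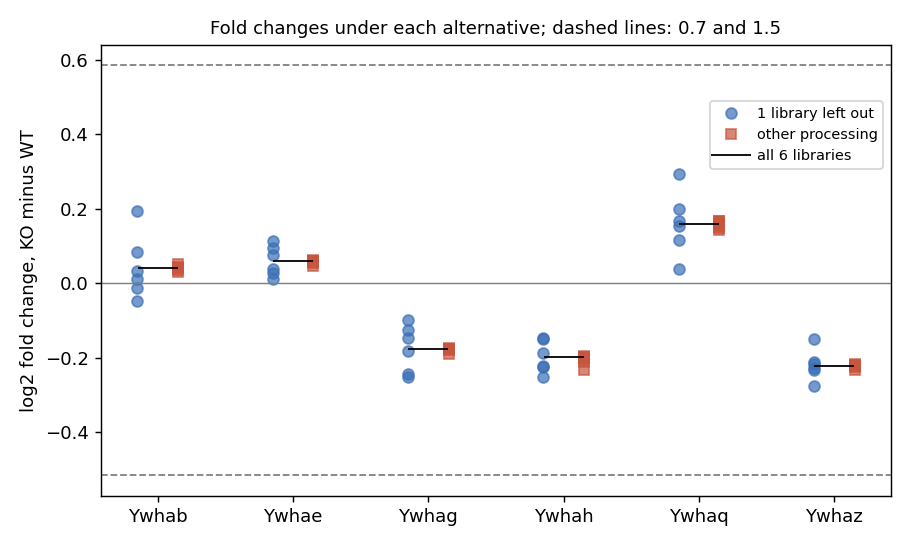
The vertical axis gives the log2 fold change of KO minus WT for each member with all 6 libraries (black line), with 1 library left out (circles) and under other processing (squares), and dashed lines mark fold changes of 0.7 and 1.5. No value reaches a dashed line, and Ywhab is the member whose circles lie on both sides of 0.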

How the data were processed

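RNA of 3 WT and 3 KO TA muscle samples was measured, grouped by the sample titles. Paired-end reads were mapped by the authors with Hisat2 and counted per gene with featureCounts, and raw counts were deposited without normalization. The unnumbered wild-type column was taken as replicate 1, since the other 2 are numbered. The methods name GRCm38 and the submitters' processing notes GRCm39. The table's gene positions equal those of GENCODE M21 (GRCm38) for only 1494 of 52083 shared genes, so the table is not on that annotation's coordinates. Its positions are not printed. The positions and sequences printed come from GENCODE M21, the annotation at hand, and describe the genes, not the counted exons. Symbols matched 52083 of 55416 identifiers.

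Genes were kept with filterByExpr, scaled by TMM and compared in edgeR 4.0.16 (R 4.3.3) with its robust quasi-likelihood fit on all 6 libraries, with Benjamini-Hochberg adjustment over 15623 genes. A standard error is the log2 fold change divided by the root of its F statistic, and 95% intervals use the matching t quantile. The steps were tested on simulated data. The alternatives were DESeq2 1.42.0, its size factors in edgeR, other filters on low counts (none, or at least 10 counts in every library), robust estimation off, the replicate number as a block, no mitochondrially encoded genes, added pseudogene counts, and leaving out each library.

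The members and lists were chosen with earlier results of these data known. Named were the members, Sfn, their pseudogenes, Selenow, Rac1, the most similar gene of each member, and list genes past the DEG thresholds, except that the results of 1 list are not reported here. Beyond this rule, Gm12428's statistics, the 4 client genes with an unadjusted p under 0.05 and the leukocyte, endothelial and epidermal genes are given after their values were seen. The markers of adipocytes (0.224 to 0.775 CPM summed per library), nerve (6.26 to 14.6), endothelium (49.0 to 87.7) and satellite cells (6.57 to 9.35) were summed likewise. The endothelial log2 fold changes, KO minus WT, were 0.34 for Pecam1, 0.50 for Cdh5, 0.062 for Kdr and 0.29 for Tek. Their lowest adjusted p in edgeR was 0.340, for Cdh5.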

Additional observations from a re-analysis of the deposited data

How the results depend on the processing

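Under each of the 15 alternatives, 0 of the 6 members met the DEG thresholds and 0 had an adjusted p or an unadjusted p under 0.05, and dropping the fold change threshold also gave 0. Of the 13819 to 31780 genes tested under these alternatives, 666 to 1780 met the DEG thresholds and 1175 to 2766 had an unadjusted p under 0.05. With 1 library left out, the median log2 fold change of the members ranged from -0.097 to -0.011, the latter without KO replicate 2, and that of Ywhab from -0.048 to 0.19, below 0 without WT replicate 2 or 3. The other 5 members kept their direction under all 15 alternatives, with ranges of 0.012 to 0.11 for Ywhae, -0.25 to -0.099 for Ywhag, -0.25 to -0.15 for Ywhah, 0.040 to 0.29 for Ywhaq and -0.28 to -0.15 for Ywhaz. The lowest unadjusted p over the alternatives was 0.0717, for Ywhaz. The causes were not tested. With the replicate number as a block the median was -0.062; same-numbered WT and KO libraries had deviations that correlated at 0.060, 0.044 and -0.074 over genes, so the numbers were not taken as pairs. Over all genes, 836 met the DEG thresholds, against 1780 of 31780 without a filter, and an adjusted p under 0.05 was given to 0 genes, against 45 with DESeq2, 363 without a filter, 4 with at least 10 counts in every library, 1 with the replicate block, and 0 to 242 with 1 library left out, the highest without KO replicate 2. Depth limits Sfn and the pseudogenes most, with at most 55 counts per library.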
